A study of Homo sapiens with 6 samples.

Results

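The melanocortin system was described here through 10 genes: the receptors MC1R, MC2R, MC3R, MC4R and MC5R, the hormone precursor POMC, the antagonists ASIP and AGRP, and the receptor accessory proteins MRAP and MRAP2. They were chosen by name from the 20015 protein-coding genes of GENCODE version 44, counting genes shared by X and Y once. A peak belonged to a gene when it overlapped the gene body or lay within 50 kb of it, which gave the 10 genes 29 of the 30784 peaks. A promoter peak was one with a base within 3 kb of any transcript start of the gene.

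The peaks came from H3K27ac chromatin immunoprecipitation and sequencing (ChIP-seq) of SU-CCS-1, a long-cultured line from human clear cell sarcoma, a soft tissue tumour with melanocytic features, whose genotype is given as EWSR1::ATF1, a fusion gene shared by all of the samples. The 3 H3K27ac libraries and the 3 input libraries, made of sonicated chromatin without antibody, came from this line under a single condition. No unfused or fusion-depleted cells were measured, and no label says whether the replicates were separate cultures. The peaks were deposited as 1 merged list of positions on hg38, so no value per library, read depth, signal height or replicate error could be given, and no test was run.

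H3K27ac is a histone acetylation found at active promoters and enhancers, and a peak is a stretch where it was called above input. A locus without a peak fell below the calling cutoff or was removed after calling, which does not show that it lacked acetylation. Melanocortin receptors couple to the stimulatory G protein and raise cyclic AMP, which activates protein kinase A and CREB family factors, the family to which ATF1 belongs. In melanocytes MC1R responds to the POMC product alpha-MSH by raising MITF and pigment synthesis, and ASIP blocks it. In the adrenal cortex MC2R needs MRAP to reach the cell surface and answer ACTH, another POMC product.

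Reference sequences at 4 of the start sites are shown first, chosen because they lay in a peak or outside any. The letters are hg38, as given for the RefSeq promoter windows on GRCh38.p14, read 5′ to 3′ on the gene's own strand. The 250 bases before the MC1R start (chr16:89918612-89918861, plus strand) lay inside a peak, and the capitals mark CATGTG, an E-box of the kind bound by MITF.

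MC1R: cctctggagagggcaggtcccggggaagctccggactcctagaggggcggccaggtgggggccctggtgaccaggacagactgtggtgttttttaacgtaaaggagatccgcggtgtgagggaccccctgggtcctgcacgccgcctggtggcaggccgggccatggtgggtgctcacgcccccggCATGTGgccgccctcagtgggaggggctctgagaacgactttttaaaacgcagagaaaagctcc

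The 250 bases before the AGRP start (chr16:67483548-67483797, minus strand) lay outside any peak, and the capitals mark the E-box CACGTG. The peak that counted as the AGRP promoter peak began on the other side of the gene.

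AGRP: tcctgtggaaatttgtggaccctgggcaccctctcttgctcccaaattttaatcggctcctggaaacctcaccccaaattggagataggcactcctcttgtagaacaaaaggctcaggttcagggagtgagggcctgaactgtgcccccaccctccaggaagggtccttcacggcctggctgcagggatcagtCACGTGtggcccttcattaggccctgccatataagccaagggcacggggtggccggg

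The next stretches show a pair of CG-rich starts that differed in whether a peak was called, with every CG in capitals. The POMC stretch is the first 250 bases of the first intron (chr2:25168248-25168497, minus strand), inside a peak, and held 29 CG in 71.6% GC. The MRAP2 stretch is the 250 bases before the start (chr6:84033522-84033771, plus strand), 174 kb from the nearest peak to its start, and held 26 CG in 70.4% GC.

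POMC: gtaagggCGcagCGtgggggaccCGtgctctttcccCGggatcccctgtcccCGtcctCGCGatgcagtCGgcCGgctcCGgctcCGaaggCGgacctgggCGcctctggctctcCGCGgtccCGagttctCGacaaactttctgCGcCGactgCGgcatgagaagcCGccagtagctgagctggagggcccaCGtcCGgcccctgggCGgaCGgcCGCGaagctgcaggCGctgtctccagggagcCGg

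MRAP2: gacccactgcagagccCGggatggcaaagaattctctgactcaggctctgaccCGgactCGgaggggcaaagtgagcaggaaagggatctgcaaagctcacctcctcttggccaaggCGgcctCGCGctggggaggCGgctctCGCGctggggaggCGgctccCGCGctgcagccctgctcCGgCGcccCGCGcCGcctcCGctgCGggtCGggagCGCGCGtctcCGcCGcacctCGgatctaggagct

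Of the 10 genes, 3 had a promoter peak, namely MC1R, POMC and AGRP. Their share (95% Wilson interval 10.8 to 60.3%, counting error only) stood beside 63.4% of all protein-coding genes. The interval treats the 10 genes as independent random draws, but they were chosen by name. MC2R and MC5R also sat in the same stretch without a peak. The interval is therefore no test of a difference from all genes. A peak in the body or within 50 kb was found for 5 genes, MC1R, POMC, ASIP, AGRP and MRAP, against 83.1% of all genes. The body itself held a peak in 4 genes, all of these but AGRP, against 64.7% of all genes. The other 5 genes had none within 50 kb. The median number of peaks was 1.0, beside 3.0 over all genes, and the median summed peak width was 1195 bases, beside 3300 bases. From the nearest start site to the nearest peak the median distance was 59.0 kb, beside 0 over all genes.

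The 29 peaks were not wide as a group. Their widths ran from 420 to 24130 bases with a median of 980, beside 1060 over all peaks. Only 4 of them lay within 3 kb of a start of the member itself, and 3 of those 4 lay within 3 kb of another gene's start as well. The exception was the POMC start peak. Of the rest, 14 lay at another gene's start and 11 at no start, a share of 37.9% beside 38.8% over all peaks. The share at no start was thus near that of all peaks, and the split is not particular to the members. Starts of noncoding genes and pseudogenes counted as another gene's start, and no like count over all peaks is given here. Protein-coding neighbours, with a start within 50 kb of a member or a body overlapping it, numbered 9. All 9 had a promoter peak, beside 63.4% of all protein-coding genes. They were neighbours of MC1R (4), MRAP (2), AGRP (2) and ASIP (1) only. POMC and the 5 members without a peak within 50 kb had no such neighbour.

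**Figure D1:**
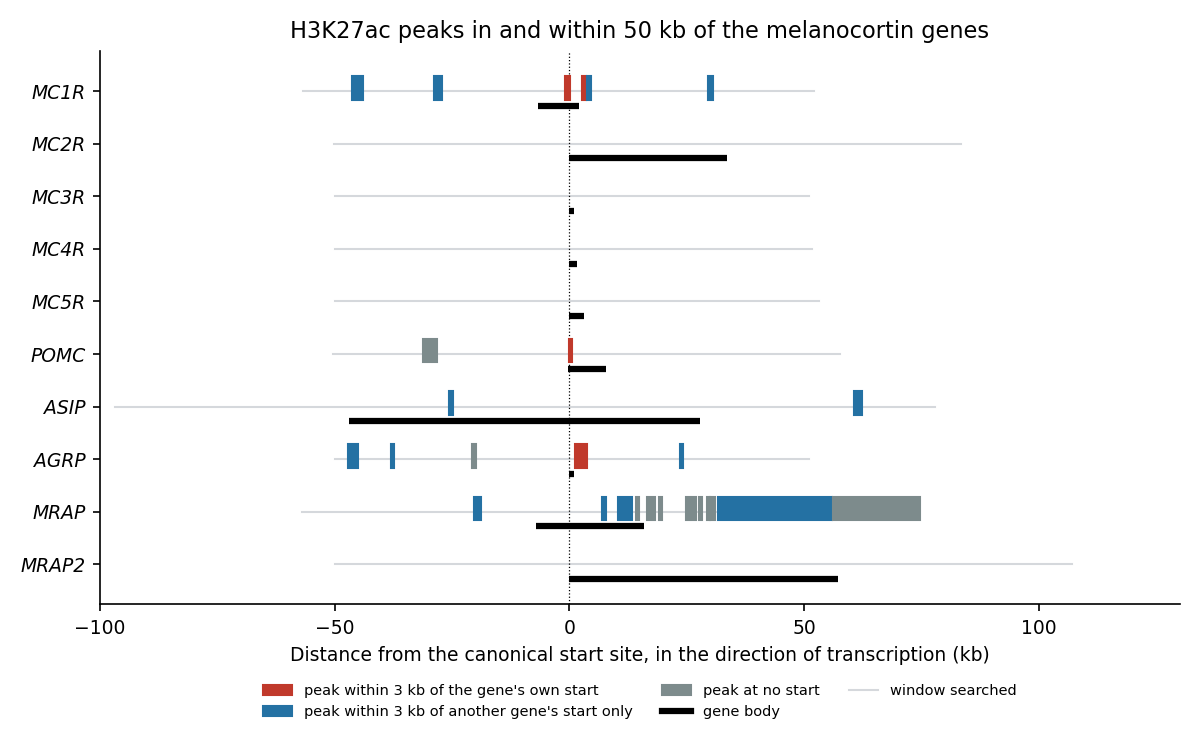
Positions of the H3K27ac peaks in and within 50 kb of each melanocortin gene, in kb from the canonical start in the direction of transcription (grey lines mark the window searched, black bars the gene bodies). MC2R, MC3R, MC4R, MC5R and MRAP2 have no peak in their windows, and MRAP has 13.

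Among the receptors, MC1R alone had a promoter peak, so 1 of 5 did, beside 63.4% of all genes. None of the 5 did when only the gene start or only the widest 50% of peaks counted, beside 58.0% and 48.6% of all genes. MC1R (ENSG00000258839.4, chr16:89912119-89920973, plus strand) is the receptor of the melanocyte lineage. Its start peak (chr16:89917941-89918960) measured 1020 bases, wider than 48.0% of all peaks, and reached from 921 bases before the canonical start to 98 bases after it. Of the 7 peaks of MC1R it alone overlapped the gene. The peak also lay within 3 kb of starts of TUBB3, a neuronal beta-tubulin gene that begins just past MC1R, and of a protein-coding gene with no symbol (ENSG00000198211), so it cannot be assigned to MC1R alone.

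Past the MC1R end stood a pair of further peaks. The nearer (chr16:89921531-89922320, 790 bases) began 558 bases past the gene and 2669 bases from the canonical start, which made it a second promoter peak by the 3 kb rule, and the farther (chr16:89922541-89923520, 980 bases) began 3679 bases from that start. Both lay within 3 kb of a TUBB3 start. Joined with the start peak they formed a region of 3 peaks with 2.79 kb of peak bases, ranked 4101 of 17049. The remaining 4 peaks of MC1R lay at starts of TCF25 (2320, 690 and 650 bases) and DEF8 (1180 bases). The summed width of 7.63 kb exceeded that of 75.8% of genes, although 1.02 kb of it lay in MC1R itself.

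None of the other receptors had a peak within 50 kb. MC5R, expressed in exocrine glands (ENSG00000176136.6, chr18:13824149-13827323, plus strand), lay 96.7 kb from the nearest peak, at the starts of FAM210A and RNMT. The ACTH receptor MC2R (ENSG00000185231.5, chr18:13882044-13915707, minus strand) lay 155 kb from the same peak. The 2 genes sat in 1 stretch of 404 kb without a peak, which ended at a ZNF519 peak on the other side. Of the 30760 gaps between neighbouring peaks, 4.72% were longer.

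MC3R and MC4R are the receptors of hypothalamic neurons that govern energy balance. MC3R (ENSG00000124089.4, chr20:56248732-56249815, plus strand) lay 109 kb from a peak of 2680 bases at the FAM210B start and 1535 kb from the nearest peak on its other side, a gap of 1645 kb that 0.647% of gaps exceeded. MC4R (ENSG00000166603.5, chr18:60371062-60372775, minus strand) stood farthest from a peak, with 471 kb to a peak at the PMAIP1 start and 1521 kb to one at the RNF152 start. Its gap of 1993 kb was exceeded by 0.481% of gaps. By distance to the nearest peak the receptors were ordered MC1R, MC5R, MC3R, MC2R and MC4R. Of all protein-coding genes, 11.2% lay farther from a peak than MC5R, 10.2% farther than MC3R, 7.68% farther than MC2R and 1.93% farther than MC4R.

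**Figure D2:**
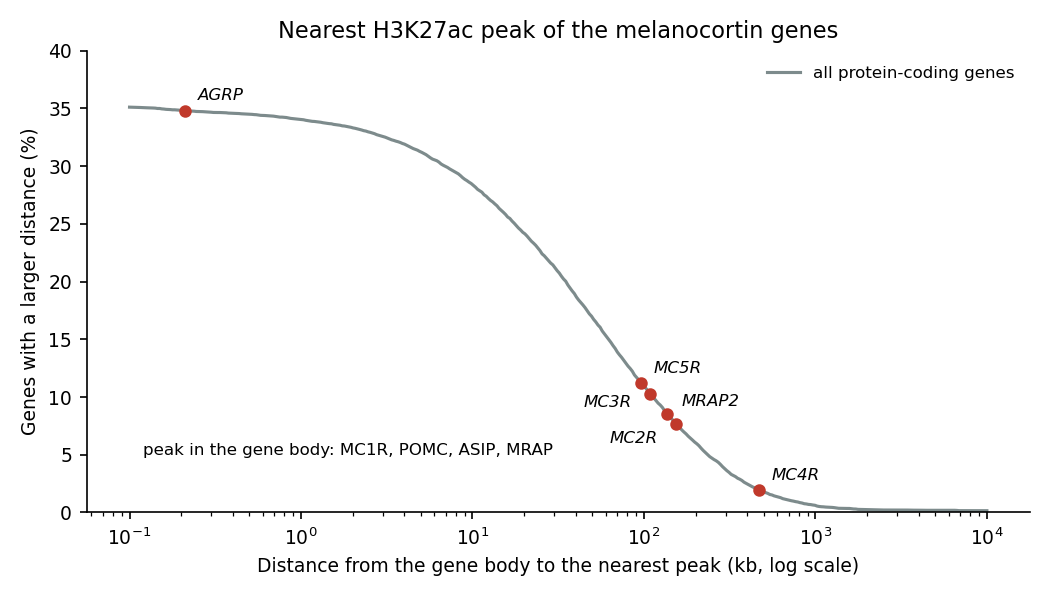
Share of all protein-coding genes whose nearest peak is farther than the distance on the log-scaled x axis (kb from the gene body), with the 6 melanocortin genes that have no peak in their body as points. AGRP lies 0.211 kb from a peak, and the other 5 lie between 96.7 kb (MC5R) and 471 kb (MC4R).

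POMC, the precursor of ACTH, the MSH peptides and beta-endorphin (ENSG00000115138.11, chr2:25160853-25168903, minus strand), had 2 peaks. The start peak (chr2:25168151-25168690) was narrow, with 540 bases and only 17.6% of peaks narrower. It reached from 110 bases before the canonical start to 429 bases after it and contained 3 of the gene's 4 start sites. No start of another gene lay within 3 kb of it, so among the 3 members with a promoter peak POMC was the one whose peak was shared with no other start.

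The other POMC peak (chr2:25196811-25199730) lay 27.9 kb upstream of the gene, overlapped no annotated gene and was at no start. Its 2920 bases made it wider than 91.7% of peaks. Both peaks stood singly, with ranks of 15306 and 3837 among the 17049 regions. The summed width of 3.46 kb was close to the median of all genes, with 51.4% of genes below it.

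The antagonists differed in where their peaks lay. ASIP, which blocks MC1R in skin (ENSG00000101440.10, chr20:34194569-34269344, plus strand), had no promoter peak. Its single peak in the body (chr20:34215851-34216380, 530 bases) lay 21.3 kb from the nearest ASIP start, at the start of the pseudogene XPOTP1. The second (chr20:34301971-34303830, 1860 bases) lay at the start of AHCY, 32.6 kb past the end of ASIP. The summed width of 2.39 kb exceeded that of 40.7% of genes.

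AGRP, which blocks MC3R and MC4R in hypothalamic neurons (ENSG00000159723.5, chr16:67482571-67483547, minus strand), counted as a gene with a promoter peak through a peak of 2500 bases (chr16:67479861-67482360). The peak lay 211 bases past the end of this short gene and 1187 bases from its start, and did not touch it. It was at the starts of ATP6V0D1, which encodes a proton pump subunit, and of its divergent transcript ATP6V0D1-DT. With a window of 1 kb in place of 3 kb AGRP had no promoter peak, whereas MC1R and POMC had one. Of the other 4 AGRP peaks, 3 lay at starts of ATP6V0D1 (480 bases) and RIPOR1 (470 and 2230 bases), and 1 of 990 bases lay 19.8 kb upstream at no start. The summed width of 6.67 kb exceeded that of 71.5% of genes.

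MRAP, the accessory protein of MC2R (ENSG00000170262.13, chr21:32291813-32314784, plus strand), had the largest summed peak width of the 10 genes. It had 13 peaks, with 45.7 kb of peak bases within 50 kb, and only 45 genes had more. None was a promoter peak, as the nearest stood 6.89 kb from an MRAP start. In the gene body were 3 peaks, of 780 bases (chr21:32305861-32306640), 2980 bases (chr21:32309221-32312200) and 490 bases (chr21:32313041-32313530). The first began 7.01 kb after the canonical start, and the first and the second lay at a start of MRAP-AS1, an antisense RNA.

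These 3 peaks stood at one end of a large cluster of peaks. Peaks were joined at the distance the study used, which lies between 5 and 25 kb, and the regions were ranked by summed peak width, since the list held no signal. Regions beyond the point where the ranked curve reached a slope of 1 were set apart, which were 879 of 17049 with more than 7.97 kb. Such a region overlapped 1 of the 10 genes, MRAP, against 7.58% of all genes. It ran from chr21:32305861 to chr21:32393840, held 18 peaks with 63.9 kb and ranked 4. Of its peak bases, 4.25 kb (6.65%) lay in MRAP and 60.5 kb (94.7%) in URB1, a ribosome biogenesis gene on the opposite strand whose body overlaps that of MRAP over 3.77 kb. The URB1 body touched 17 of the 18 peaks, among them peaks of 24130 and 18570 bases that ranked 4 and 9 by width.

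The MRAP call rested on the joining distance. With 5 kb the region split, and the MRAP side (chr21:32305861-32318430) held 5 peaks with 6.46 kb, below the point of 6.67 kb at that setting, while the URB1 side kept 13 peaks with 57.4 kb.

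MRAP2, which modulates MC4R in the brain (ENSG00000135324.6, chr6:84033772-84090881, plus strand), had no peak within 50 kb. The nearest, 136 kb past its end, lay at the CEP162 start and measured 1010 bases, and the nearest before it, 174 kb away, lay at the CYB5R4 start and measured 610 bases. The gap of 367 kb was exceeded by 5.28% of gaps, and 8.54% of genes lay farther from a peak.

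GC content was set beside the peaks, because GC-rich starts carry peaks more often. Over 20013 genes with sequence, a peak lay within 3 kb of the canonical start in 59.9%, from 18.2% of genes with at most 51.7% GC in the 1 kb around the start to 80.3% of genes with 69.0% or more. MC2R (38.7% GC), ASIP (40.1%), MC4R (42.7%), MRAP (50%) and MC3R (51.4%) all fell in the former class, and none had a peak there. Among genes within 2 points of the same GC, a peak was present in 7.68% for MC2R, 7.86% for ASIP, 10.7% for MC4R, 36.6% for MRAP and 42.3% for MC3R.

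Of the genes with more GC, AGRP (58.4% GC), MC1R (63.2%) and POMC (65.4%) had a peak, as did 65.1%, 71.1% and 73.4% of genes of like GC. MC5R (55.3%) and MRAP2 (65.5%) had none, where 56.9% and 73.7% of genes of like GC had one. POMC and MRAP2 were almost alike in GC. Their ratios of observed to expected CG were 0.817 and 0.738, whereas that of MC1R was 0.302.

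**Figure D3:**
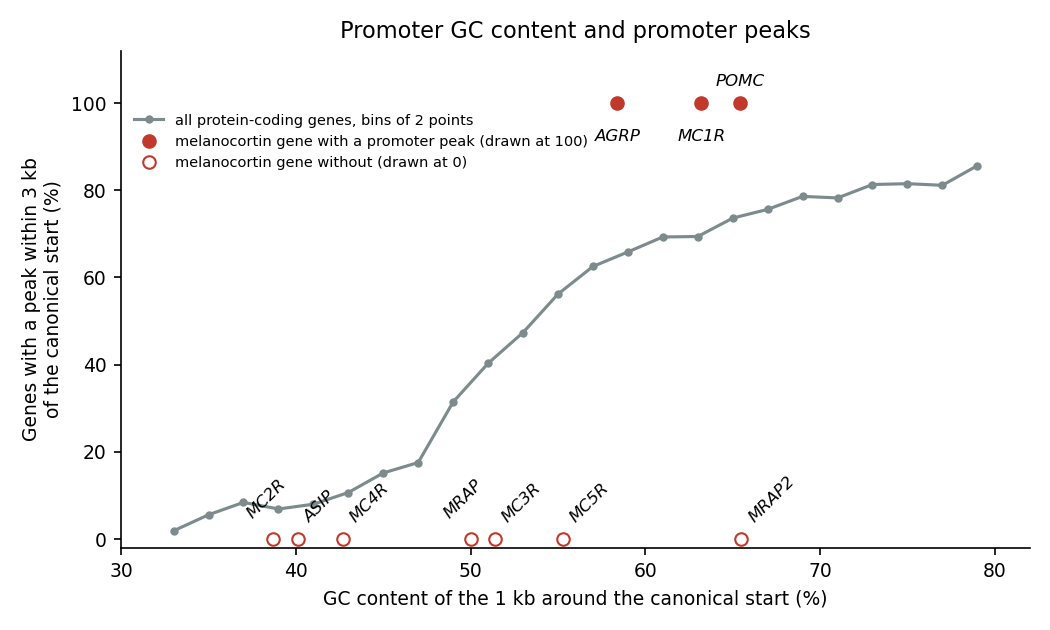
Share of all protein-coding genes with a peak within 3 kb of the canonical start, by GC content of the 1 kb around it, with the melanocortin genes drawn at 100 where they have such a peak and at 0 where not. The 5 genes at 51.4% GC or below have none, and MRAP2 is without a peak at 65.5%.

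Short motifs were then looked for in the promoter windows, from 250 bases before to 50 bases after the RefSeq start, on both strands. They were the cyclic AMP response element TGACGTCA, its relaxed form TGANNTCA, the AP-1 element TGAGTCA, the response element core TGACG, and a pair of E-boxes, CATGTG as well as the palindrome CACGTG. Every TGACGTCA also counts as a match of TGACG and of its relaxed form. The table held 12 windows for 9 of the 10 genes, all but MRAP. TGACGTCA was in none of the 12, and in 1.85% of the 35116 windows of all genes. TGANNTCA was in both MC2R windows (11.5% of all windows), at the same site, as these windows overlap. TGAGTCA was in an MRAP2 window (4.95%) and TGACG in the MC5R window (24.6%). CATGTG was in the windows of MC1R and MC2R (11.1%), and CACGTG in that of AGRP (7.26%). A match is a match of letters, not a bound site, and of the genes named only MC1R and AGRP had a promoter peak.

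Within the 29 peaks, which cover 74.6 kb, TGACGTCA occurred 1 time, 13.4 per Mb beside 19.1 per Mb in all peaks. The rates were 563 beside 466 per Mb for TGANNTCA, 188 beside 150 for TGAGTCA, 724 beside 665 for TGACG, 831 beside 521 for CATGTG and 174 beside 192 for CACGTG. These rates largely describe URB1, whose 2 widest peaks cover 42.7 of the 74.6 kb and hold 28 of the 42 TGANNTCA and 37 of the 62 CATGTG. In the other 27 peaks the rate per Mb was 439 for TGANNTCA, now below that of all peaks, 188 for TGAGTCA, 847 for TGACG, 784 for CATGTG and 125 for CACGTG, and the single TGACGTCA gave 31.4, now above it. Of the 25 CATGTG left, 9 lay in 1 further peak in URB1. The MC1R start peak held 1 TGACG, 1 CATGTG and 1 CACGTG, and 45.5%, 34.0% and 16.5% of peaks of like width, meaning within 10% of it, held at least as many. The POMC start peak held none of the 6 motifs, and the upstream POMC peak held 4 TGANNTCA and 3 CATGTG. The peak of 2980 bases in MRAP held 5 TGANNTCA, reached by 1.59% of the 1197 peaks of like width. This count was the highest of the member peaks outside the widest pair, so the share is no test.

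Examples of sites of the response element, its relaxed form and the AP-1 element are given on the plus strand of hg38. The motif is in capitals, with 20 bases on each side. Member peaks held further sites of the relaxed form and of the AP-1 element. The single TGACGTCA (chr16:67530395-67530442) lay in an AGRP peak, in an intron of RIPOR1. The relaxed form is shown from the peak past the MC1R end (chr16:89923258-89923305), in an intron of TUBB3, and from the widest peak in MRAP (chr21:32310001-32310048), in an intron of that gene. The AP-1 element is from the peak in ASIP (chr20:34216253-34216299), also intronic.

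RIPOR1 peak: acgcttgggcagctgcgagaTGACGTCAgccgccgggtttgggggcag
TUBB3 peak: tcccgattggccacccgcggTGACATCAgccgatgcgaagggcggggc
MRAP peak: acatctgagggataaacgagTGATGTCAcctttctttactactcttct
ASIP peak: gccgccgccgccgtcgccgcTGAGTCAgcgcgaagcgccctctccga

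The rest of the pathway was described from 5 lists with 45 genes, of which 35 (77.8%) had a promoter peak, beside 63.4% of all genes. Widths given for these genes are those of the widest promoter peak of each, which may be 1 of several. Of the 7 genes that cut, amidate or escort POMC and its products, 6 had one. They included CPE (0.730 kb), a carboxypeptidase, PAM (1.87 kb), the amidating enzyme, SCG5 (1.85 kb), the chaperone of PCSK2, and PRCP (1.81 kb), which inactivates alpha-MSH. PCSK2, which makes alpha-MSH, had a narrow peak of 430 bases. PCSK1, the convertase that releases ACTH, had none, with 38.9 kb to the nearest.

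Of the 8 transcription factors known to act on POMC, 5 had a promoter peak. The corticotroph factors TBX19, PITX1 and NEUROD1 had none, with 36.1 kb, 126 kb and 23.4 kb from a start to the nearest peak. Those with one included STAT3 and the nuclear receptors NR4A1, NR4A2 and NR4A3. NR4A1 and NR4A2 lay in regions past the slope-1 point (ranks 410 and 639), and the widest NR4A2 promoter peak measured 4.47 kb. All of the 4 accessory genes had one: ATRN (1.31 kb), needed for ASIP action, ATRNL1 (2.22 kb), its relative, MGRN1 (3.18 kb), a ubiquitin ligase that acts on melanocortin receptor signalling, and SDC3 (1.56 kb), a proteoglycan linked to AGRP.

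The signal relay had a promoter peak in 15 of 17 genes (88.2%). The widest promoter peak measured 8.86 kb at GNAS, the stimulatory G protein, 4.85 kb at PRKAR1A, a regulatory subunit of protein kinase A, and 4.32 kb at CREB1. GNAS, PRKACA and PRKAR1A lay in regions past the slope-1 point, with ranks of 748, 729 and 431. The adenylyl cyclases without a peak were ADCY4 (18.5 kb to the nearest) and ADCY8 (69.4 kb).

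Of the 9 pigment cell genes that act after MC1R, 5 had a promoter peak (55.6%). MITF (3.39 kb), the lineage factor, PMEL (5.53 kb), a melanosome matrix protein, and OCA2 (10.1 kb), a melanosome channel, lay in regions past the slope-1 point with ranks of 210, 220 and 43. DCT (3.89 kb) and MLANA (1.64 kb) also had a peak. Tyrosinase, the rate-limiting enzyme of melanin synthesis, encoded by TYR, had none, with 840 kb to the nearest. TYRP1 (9.59 kb to the nearest), SLC45A2 (22.7 kb) and SLC24A5 (55.7 kb) had none either.

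**Figure D4:**
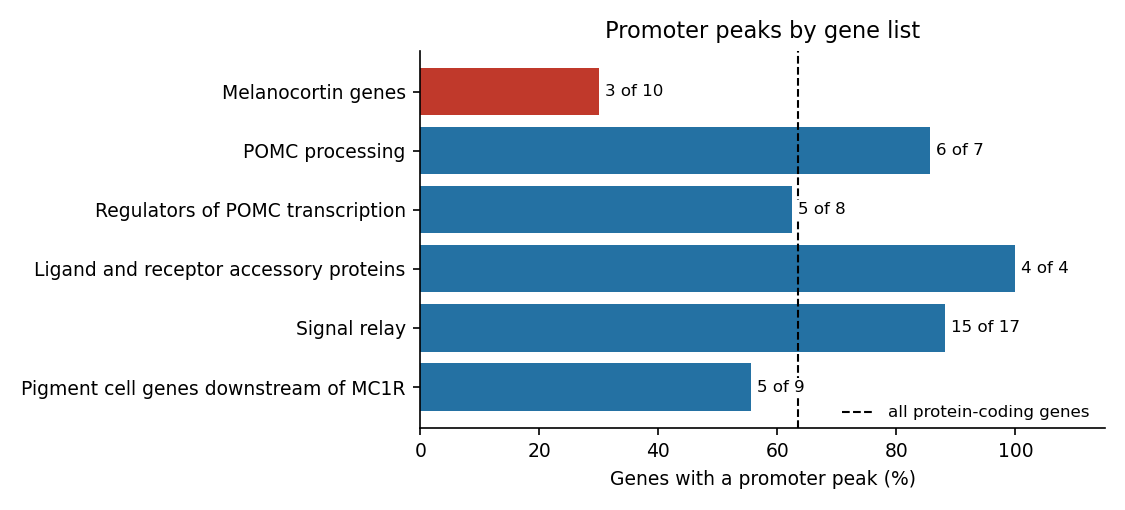
Share of genes with an H3K27ac promoter peak in the melanocortin genes and in each of the 5 pathway lists, with the number of genes beside each bar. The dashed line marks all protein-coding genes (63.4%), and the bars run from 3 of 10 for the melanocortin genes to 4 of 4 for the accessory genes.

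Markers of cell types were set beside the label of the line. Over all protein-coding genes, 63.4% had a promoter peak. All of the 5 markers of clear cell sarcoma and the melanocyte lineage (SOX10, MITF, PMEL, MLANA and S100B) had a promoter peak, the widest at SOX10 measuring 18 kb. The S100B peak lay 0.153 kb from a start and did not touch the gene. MITF, PMEL and MLANA are also among the 9 pigment cell genes above, of which only 5 had one. The markers are thus no independent check of the label. The cell types in which the other melanocortin genes are known to work had few. They were 1 of 5 corticotroph markers, which was POMC itself, and 1 of 5 arcuate neuron markers, which was AGRP through the peak at the ATP6V0D1 starts. Of 6 adrenal cortex markers, MC2R among them, 1 had one, STAR, through a peak of 590 bases 2.97 kb from its start. Of 5 adipocyte markers, 1 had one, CIDEC, through a peak of 500 bases 2.91 kb from its start.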

How the data were processed

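H3K27ac and input ChIP-seq libraries of SU-CCS-1 were grouped by their titles. Per the study's methods and the submitters' processing notes, the authors used BWA 0.7.10-r789 to place reads on hg38, removed duplicates, called broad peaks with MACS2 2.2.6 against input and removed unreliable regions. They deposited 1 list with 4 columns (chromosome, start, end and name), and positions are its only values. How replicates were merged is not given in the sources used here. Broad calling joins neighbouring stretches, so peak width depends on signal and on the joining rule.

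From this list, peaks were compared with GENCODE 44 genes, with positions counted from 1, in Python 3.11.15 with numpy 2.4.6 and pysam 0.24.0, and plotted with matplotlib 3.10.9. The overlap, joining and motif functions were tested on simulated data. The members and lists were chosen with earlier results of these data known. Genes named were the members, genes with a start within 50 kb of a member or a body overlapping it, the genes at either end of a gap, and the lists and markers. The GC comparison, the motif search inside peaks (with and without the widest pair) and the choice of printed sequences and of genes at gap ends were made after the values were seen. The values of 1 listed gene are not reported here. Peaks of like width for motif shares were taken from the same list. Alternatives changed the promoter window, neighbourhood, transcripts, peak width and joining distance.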

Additional observations from a re-analysis of the deposited data

How the results depend on the processing

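No paired analysis was possible because nothing in the list belongs to a single replicate, and for the same reason no replicate could be left out in turn. The number of members with a promoter peak, 3 as reported, was 1 with the widest 50% of peaks and 1 with the widest 25%, AGRP in both, when 48.6% and 26.5% of all genes had one. It was 2 or 3 under the other promoter rules, when 58.0 to 64.8% of all genes had one. Of these rules, counting from the gene start alone dropped MC1R. Members with a peak within 50 kb fell from 5 to 3 without peaks at another gene's start. The share of all genes under that rule is not given here, so the fall cannot be set beside it. The 29 peaks became 6 in gene bodies, 12 within 10 kb, 54 within 100 kb, 11 among the widest 50% and 8 among the widest 25%. The summed width over the members, 65.8 kb, was 30.1 kb within 25 kb and 114 kb within 100 kb. Members in a region past the slope-1 point, 1 as reported, were 0 when joining at 5 kb and 2 at 25 kb (MC1R and MRAP). At these distances 889 and 726 regions lay past the point, and the share of all genes they overlapped is not given here. Pathway genes with a promoter peak, 35 as reported, were 19 with the widest 25%. The cause of these shifts was not tested. Of the other values of this kind, 17 stayed within 1.5 times the reported one. The list gives neither depth nor signal, so a weak peak cannot be told from a strong one, and loci without a peak have no upper limit.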

Other observations

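A peak of 1670 bases (chr21:32315391-32317060) that began 0.607 kb past the end of MRAP, inside URB1, held 9 matches to the E-box CATGTG. At least as many were found in 0.101% of the 2960 peaks of like width. The peak was picked for its count, the highest among the MRAP peaks apart from the widest pair, so this share tests nothing. The matches were not spread along the peak: 8 of the 9 stood within 200 bases, and the median spacing over the 9 was 18.5 bases. Matches were counted on both strands, and a pair of them overlapped, so the 9 were not all separate sites. What this clustering reflects was not tested.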
